A study of Mus musculus with 4 samples.

Results

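One mouse embryonic stem cell line, NT-ESC line 3, was compared with the 3 other cell populations of the same study, 1 array each of 4 in all. The other arrays held an induced pluripotent stem cell (iPSC) clone, reprogrammed from tail-tip fibroblasts by means of adenoviral vectors, and NT-ESC lines 1 and 2. NT-ESC stands for an embryonic stem cell line derived from a cloned blastocyst after nuclear transfer, and the labels name all 3 lines as subclones from the 1 iPSC clone. All cells were grown in 15% FBS and LIF, the cytokine that holds mouse stem cells undifferentiated, on irradiated embryonic fibroblasts. They were preplated for 45 minutes to take those fibroblasts away before RNA extraction. The clone and lines 1 and 2 were taken as 1 group, so the comparison asks how line 3 differs from its parent and from both other lines at once. No line had a second array, and the labels do not say whether the lines are separate derivations. Error estimates therefore measure the spread between these arrays, and line 3 was assumed to vary like the others.

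Pluripotent stem cells keep a network of transcription factors such as Oct4, Sox2 and Nanog active, and in serum with LIF they divide fast and fluctuate between substates. They also transcribe many germ line genes, which DNA methylation and Polycomb proteins hold down in most body cells. Such marks, those of imprinted genes included, can be gained or lost when a line is derived or kept in culture. In an imprinted gene the copy from 1 parent is silent.

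Line 3 carried the pattern of a pluripotent line. The 8 markers of pluripotent cells, Pou5f1, Sox2, Nanog, Zfp42, Sall4, Dppa5a, Fgf4 and Tdgf1, stood between 10.83 and 13.78 on the 4 arrays, with medians of 12.14 in the clone, 12.26 and 12.25 in lines 1 and 2 and 12.12 in line 3. A level here is a log2 intensity whose mean over an array is assumed to be 7, and a difference is line 3 minus the mean of the other 3 arrays on that scale. None of the 8 passed the test. Markers of fibroblasts and feeders, 10 in number, had medians of 7.37, 7.34, 7.33 and 7.36, and 1 was lowest and 2 were highest in line 3. Their differences ran from -0.08 to 0.22, with none called, although Col1a2 stood between 10.80 and 11.11 on the 4 arrays. A wider list of 31 fibroblast and feeder genes was lowest in line 3 for 12 and highest for 3 (28.8% and 25.7% over all genes). Tagln differed by -0.69, Timp3 by -0.52, Acta2 by -0.49 and Cd44 by -0.40, and 0 of the list were called. No marker of primitive endoderm, trophectoderm, mesendoderm or the neural lineage was called, but 5 of 6, 4 of 5, 2 of 3 and 1 of 4 of these were under the median of all probe sets on every array. Among them Pax6 differed by -0.59 (limma adjusted p = 0.0696) and Tubb3 by 0.45 (limma adjusted p = 0.0825). The 3 mesendoderm markers read, Eomes, Gsc and Mixl1, were highest in line 3 and differed by 0.56, 0.10 and 0.08. Another chosen mesendoderm marker, T, was not found under that symbol and was left out. Since RNA came from bulk cultures, fewer cells of a type and less RNA per cell cannot be told apart. The gap between 3' and 5' probe sets of the beta-actin control, a sign of RNA quality, was 0.29 in line 3 and 0.22 to 0.42 on the other arrays. That of 18S RNA was 0.53 in line 3, below its range of 0.68 to 0.84 on the others, and all 3 probe sets for 18S RNA were highest in line 3. Their levels were 8.09, 7.57 and 7.46 there, against at most 7.84, 7.12 and 7.09 on the other arrays. The part of this in the results was not tested.

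Line 3 differed from the other arrays in 84 of 18193 genes (0.462%). Of these 29 were higher (0.159%) and 55 lower (0.302%). A gene was called when its Benjamini-Hochberg adjusted p from limma was under 0.05, two-sided over all genes. Outside chromosome 8 there were 65 calls among 17100 genes (0.38%), 12 higher (0.0702%) and 53 lower (0.31%). The falls had a median of -0.91 and reached -3.12, and the rises had a median of 0.72 and reached 1.49. An exact permutation of 4 arrays cannot go below p = 0.25, so these calls rest on limma's pooled spread. Leaving out the iPSC clone, line 1 or line 2 left 0 calls in limma each time, with 2163, 1501 and 1376 genes at an unadjusted p under 0.05. The 65 genes called outside chromosome 8 were chosen on these same arrays, line 3 included, so those fits cannot give them separate support. Fitted to the deposited values as given, before conversion to levels, limma called 15 genes, 1 higher (6.67%, against 34.5% of the main calls) and 14 lower. The reason was not tested.

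**Figure D1:**
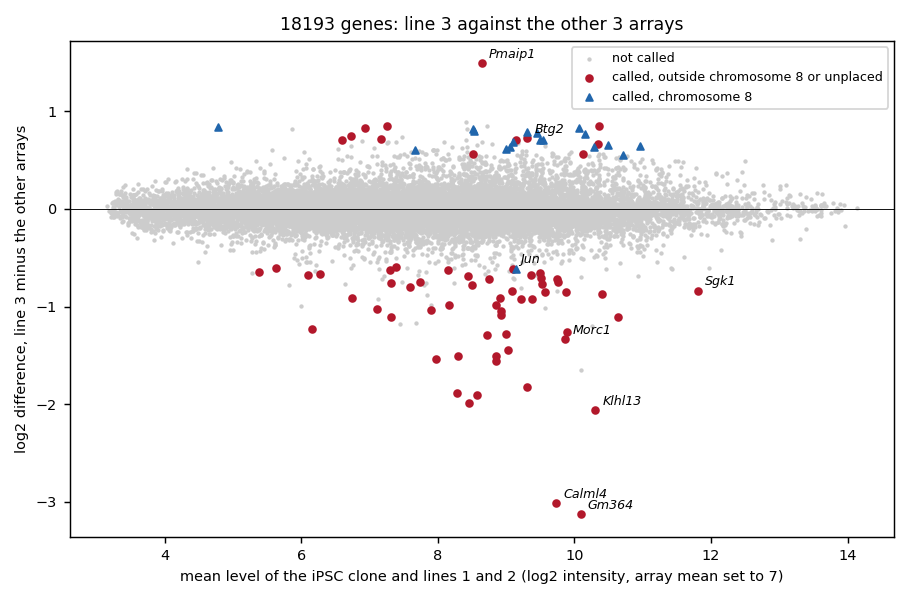
Each point is 1 of 18193 genes, with the mean level of the iPSC clone and lines 1 and 2 on the horizontal axis and the log2 difference of line 3 from that mean on the vertical axis. Red circles are genes called by limma outside chromosome 8 or without a known chromosome, blue triangles called genes of chromosome 8, and grey points the rest; Gm364 lies lowest at -3.12 and Pmaip1 highest among the called genes at 1.49.

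Without any estimate of the spread, 23 genes (0.126%) stood at least 2-fold from each of the other 3 arrays, counted where the brighter side reached 6.83, the median of all probe sets. Genes and probe sets that reach it are called bright here. Of these 22 were lower in line 3 and 1, Pmaip1, was higher, and 21 were also called by limma. None lay on chromosome 8. The exceptions to the limma call were Lefty1, an inhibitor of Nodal signalling, and Rhox5, a homeobox gene of the X-linked Rhox cluster. Lefty1 stood at 10.54 in the clone, 9.60 and 10.14 in lines 1 and 2 and 8.45 in line 3, a difference of -1.65 ± 0.30 (SE; limma adjusted p = 0.0881). Rhox5 stood at 10.12, 10.57 and 10.09 against 9.07 in line 3, a difference of -1.2 ± 0.18 (limma adjusted p = 0.0557). Both genes varied more among the other arrays than most of the called genes did. The count of 2-fold genes depends on the assumed array mean, and was 14 with a mean of 6.

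**Figure D2:**
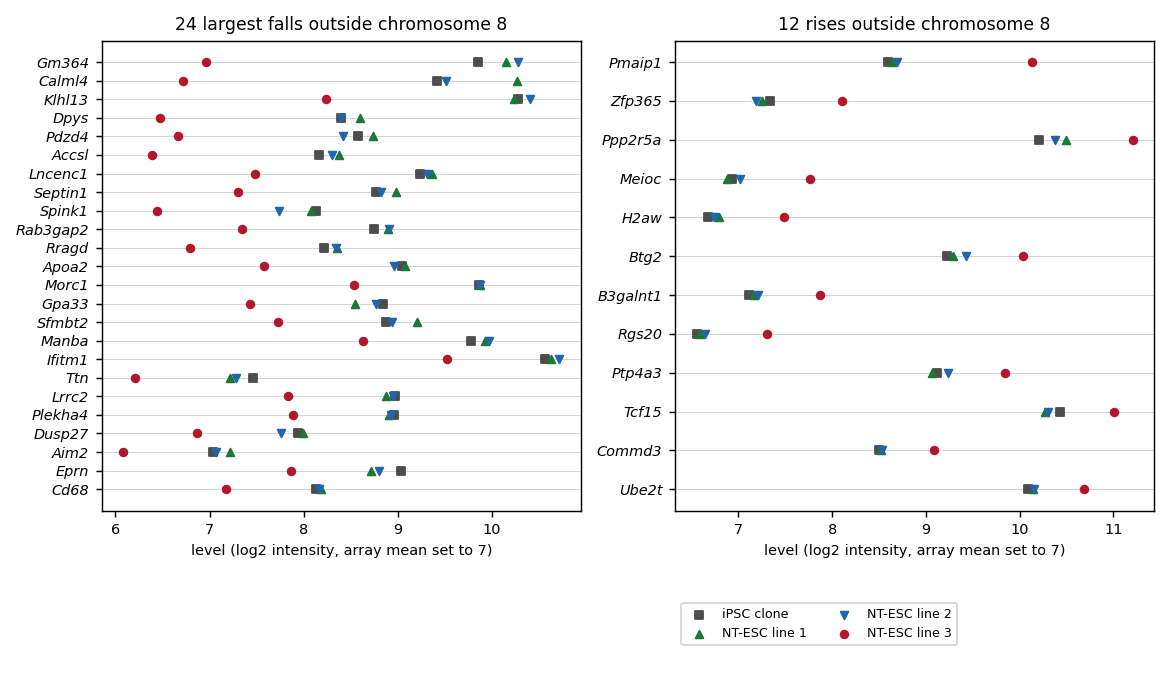
The level of each gene on each array, in log2 intensity with the array mean set to 7, for the 24 largest falls (left) and the 12 rises (right) called outside chromosome 8. Each symbol is 1 array, the red circle being NT-ESC line 3; in none of these genes does it lie within the span of the other 3, and Morc1 shows the tightest of them, at 9.87 on all 3 arrays against 8.53.

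The falls are described first by chromosome X and then by what the products do; genes were sorted into these roles after their values were seen. On the X chromosome 4 of 617 genes (0.648%) were called, all of them lower: Gm364, Klhl13, Pdzd4 and Taf7l. Falls made up 0.31% of genes outside chromosome 8, with 0.662% on chromosome 1 and 0.599% on chromosome 9. The gene model Gm364 showed the widest difference of the comparison, at 9.85 in the clone, 10.14 and 10.28 in lines 1 and 2 and 6.97 in line 3. That is a difference of -3.12 ± 0.15 (limma adjusted p = 0.00104), or 8.72-fold lower. Klhl13, an adaptor through which cullin 3 ubiquitin ligases find substrates, stood at 10.27, 10.23 and 10.41 against 8.24, a difference of -2.06 ± 0.10 (limma adjusted p = 0.00104). Its other bright probe set differed by -1.57. Of the 41 measured Kelch and cullin 3 genes Klhl13 was the 1 called, and 12 were highest and 12 lowest in line 3, where 25.7% and 28.8% of all genes were. Pdzd4, which encodes a PDZ domain protein, stood between 8.41 and 8.74 on the other arrays and at 6.66 in line 3, a difference of -1.91. Its other bright probe set differed by -0.29, and the mean of its probe sets by -1.10. Taf7l, a germ cell paralogue of a subunit of the general transcription factor TFIID, stood at 7.23, 7.31 and 7.39 against 6.55, a difference of -0.76 ± 0.09 (limma adjusted p = 0.0287). The median over all measured X-linked genes was -0.05.

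Enzymes, carriers and other genes of metabolism made up a second group among the falls. Calml4, which encodes a calmodulin-like protein, is grouped here for its size and was 9.42, 10.26 and 9.51 on the other arrays and 6.71 in line 3, a difference of -3.02 ± 0.30 (limma adjusted p = 0.0146), or 8.08-fold lower. Of the other 2 calmodulin genes measured neither was called, and Calm4 differed by 0.11. Dpys encodes dihydropyrimidinase, which opens the ring of reduced uracil and thymine in pyrimidine breakdown. It stood at 8.39, 8.60 and 8.39 against 6.47, a difference of -1.99 ± 0.11 (limma adjusted p = 0.00114). Its 2 other probe sets were under the median of all probe sets and differed by -0.03 and -0.01, so that the mean of its probe sets differed by -0.68. Of 22 measured genes of pyrimidine metabolism Dpys was the 1 called, and the median of the list was 0.04. Accsl, a relative of the plant enzyme ACC synthase, stood at 8.16, 8.38 and 8.30 against 6.39. Manba encodes the lysosomal enzyme beta-mannosidase, and it differed by -1.26 (limma adjusted p = 0.00469).

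Rragd encodes RagD, a GTPase that brings the growth kinase complex mTORC1 to lysosomes when amino acids are at hand. It stood at 8.21, 8.35 and 8.34 on the other arrays and at 6.79 in line 3, a difference of -1.51 (limma adjusted p = 0.00142). Its other probe sets, also under that median, differed by -0.31 and 0.00, and the mean of its probe sets by -0.61. Rab3gap2, the non-catalytic subunit of a regulator of Rab GTPases, also fell by 1.51, from 8.74, 8.90 and 8.91 to 7.34, and by 0.93 as the mean of its probe sets. Apoa2, an apolipoprotein of high-density lipoprotein particles, stood at 9.05, 9.08 and 8.95 against 7.58. Folr1, a folate receptor, fell by 0.85 and Slc25a12, the mitochondrial aspartate and glutamate carrier, by 0.84. The other bright probe set of Slc25a12 differed by -0.33, and the mean of its probe sets by -0.50. Of 347 measured genes with solute carrier symbols, Slc25a12 was the 1 called. Fxyd6, a regulator of the sodium pump, fell by 0.91. A4galt, which makes the glycolipid Gb3, was 7.49, 7.67 and 7.64 against 6.80 in line 3, whereas B3galnt1, which extends Gb3 to the globoside Gb4, was 7.12, 7.17 and 7.21 against 7.88. These consecutive enzymes of the globo series thus moved in opposite directions, by -0.80 (limma adjusted p = 0.0318) and 0.71 (limma adjusted p = 0.0247).

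Genes of the germ line were called in both directions. Of 50 measured members of the germ line list, 3 were lower (Morc1, Taf7l and Mei4) and 1 was higher (Meioc), with 17 highest and 17 lowest in line 3 and a median of -0.01. Over all genes 0.302% were called lower and 0.159% higher, with 25.7% highest and 28.8% lowest in line 3. Morc1, which is needed to silence transposons in male germ cells, stood at 9.87 in the clone and in both other lines and at 8.53 in line 3, a difference of -1.34 ± 0.08 (limma adjusted p = 0.00139). Mei4, which takes part in the DNA breaks of meiosis, stood at 6.08, 6.11 and 6.12 against 5.42, below the median of all probe sets on each array. Meioc, which holds germ cells in meiotic prophase, stood at 6.93, 6.87 and 7.01 against 7.77, a difference of 0.83 (limma adjusted p = 0.0191). Tdrd12, a piRNA factor of germ cells that the list did not hold, stood at 9.41, 9.50 and 9.59 against 8.84, and Gtsf1l, a paralogue of the piRNA factor Gtsf1, fell by 0.68. Dppa3, an oocyte and germ cell protein that protects maternal DNA methylation, differed by -1.02 ± 0.19 and was not called (limma adjusted p = 0.0891). Tex15 differed by 0.59 and Smc1b by -0.47, neither of them called.

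Among imprinted genes, 2 of 24 measured paternally expressed genes were called, Sfmbt2 and Peg3, both lower, and 0 of 23 maternally expressed genes were. Over all genes 0.462% were called and 0.302% were called lower. These counts are small, and the lists were not compared by a test. Sfmbt2 encodes a Polycomb-related protein with MBT domains. It stood at 8.87, 9.20 and 8.93 on the other arrays and at 7.72 in line 3, a difference of -1.28 ± 0.13 (limma adjusted p = 0.0164), or -0.83 as the mean of its probe sets. Peg3, an imprinted zinc finger gene, stood at 9.07, 9.30 and 9.29 against 8.30, a difference of -0.92 ± 0.11 (limma adjusted p = 0.0311). Its other bright probe sets differed by -0.81 and -0.91, and the mean of all its probe sets, dim ones included, by -0.52. Zim1 and Usp29, its neighbours in the same imprinted region, were under the median of all probe sets, and a change there could not be read. Line 3 was lowest for 14 and highest for 3 of the 24 paternally expressed genes (28.8% and 25.7% over all genes). Their median was -0.14. Not called were Zdbf2 at 0.85, Peg10 at 0.64, Sgce at 0.58 and Mkrn3 at -0.54, which lay in both directions. The 23 maternally expressed genes were highest in line 3 for 6 and lowest for 6. Of 30 measured Polycomb genes Sfmbt2 was the 1 called, and Bmi1, a subunit of Polycomb repressive complex 1, differed by 0.49 (limma adjusted p = 0.0906).

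Noncoding RNAs were among the falls too. Lncenc1, a long noncoding RNA abundant in mouse embryonic stem cells, stood at 9.24, 9.37 and 9.31 on the other arrays and at 7.48 in line 3, a difference of -1.83 ± 0.09 (limma adjusted p = 0.00104). Eprn, known as Ephemeron and also transcribed in stem cells, stood at 9.03, 8.71 and 8.80 against 7.86. In both genes line 3 lay below the 3 other arrays, which were close together for Lncenc1 and more spread for Eprn.

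Genes of epithelial character and of the cytoskeleton formed a further group. Grhl2, a transcription factor of epithelia, stood at 8.84, 8.71 and 8.71 against 8.04, a difference of -0.71 (limma adjusted p = 0.0342). Its other bright probe sets differed by -0.21 and -0.39, and it was not called when probe sets of a gene were averaged. Esrp1, a splicing regulator of epithelial cells, stood at 8.42, 8.48 and 8.43 against 7.75. Of 20 measured genes for epithelial keratins and junctions Esrp1 was the 1 called, and the median was -0.26. Line 3 was lowest for 11 of them and highest for 5 (28.8% and 25.7% over all genes). Krt18, a keratin of simple epithelia, stood at 8.30 in the clone, 9.37 and 9.08 in lines 1 and 2 and 8.01 in line 3, and was not called. Krt8, its partner, differed by -0.72, with line 3 level with the clone, so that the parental clone lay on the side of line 3 for both keratins. Septin1, a filament-forming GTPase, stood at 8.76, 8.98 and 8.82 against 7.30. Ttn, which encodes titin, fell by 1.11 and lost its call when probe sets were averaged.

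Signalling genes changed in small numbers. Sgk1, a serum- and glucocorticoid-regulated kinase, stood at 11.75, 11.98 and 11.70 on the other arrays and at 10.97 in line 3, a difference of -0.84 ± 0.12 (limma adjusted p = 0.0472). Jun, a subunit of the transcription factor AP-1, stood at 9.07, 9.17 and 9.08 against 8.49, a difference of -0.61 ± 0.09 (limma adjusted p = 0.0431). Of 24 measured immediate early and AP-1 genes Jun was lower and Btg2 higher. The uncalled members Egr1, Fosb and Ccn2 differed by -0.47, -0.46 and -0.42. Fgf17, a secreted growth factor of the FGF8 subfamily, stood at 7.78, 7.78 and 7.66 against 7.0. In the list of FGF and ERK genes, which does not hold Fgf17, 0 of 19 were called; the receptor gene Fgfr1, on chromosome 8, differed by 0.67 (limma adjusted p = 0.0566) and Fgf4 by -0.45. Plekha4, a phosphoinositide-binding adaptor, fell by 1.04, but its other bright probe sets differed by 0.07, -0.15 and -0.12, so its probe sets disagree.

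Surface and immune genes were represented by single members. Ifitm1, an interferon-induced membrane protein, stood at 10.56, 10.62 and 10.71 against 9.52, a difference of -1.11 ± 0.09 (limma adjusted p = 0.006). Of 17 measured genes of MHC class I and interferon response it was the 1 called. Cd68, a lysosomal glycoprotein known from macrophages, stood at 8.13, 8.18 and 8.16 against 7.17. Aim2, a sensor of cytosolic DNA, stood at 7.04, 7.22 and 7.07 against 6.09, and Gpa33, an antigen of intestinal epithelium, at 8.84, 8.55 and 8.77 against 7.42. Spink1, a trypsin inhibitor, stood at 8.13, 8.07 and 7.73 against 6.44. The probe sets of Lrrc2, Plekha4, Klrb1b and Serpinb6c among the falls, and of H2aw among the rises, are of a kind that may bind transcripts of more than 1 gene, so these values are uncertain. Lrrc2 has another bright probe set that is not of this kind. It stood at 6.88, 6.86 and 6.96 against 5.69, a difference of -1.21. Klrb1b, a receptor of natural killer cells, and Vwf, von Willebrand factor, as well as Cep290, were under the median level of all probe sets on each array.

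The other genes called lower outside chromosome 8 were Lrrc2 (-1.09), 1700019D03Rik (-0.92), AU018091 (-0.87), Fam25c (-0.85), Wdr31 (-0.78), Bicral (-0.77), Taf1d (-0.75), Zbtb8a (-0.72), Nif3l1 (-0.70), Cep290 (-0.64), Dennd4a (-0.63) and Klk8 (-0.62), where each value is the log2 difference. Bicral is a subunit of a BAF chromatin remodelling complex, Taf1d a factor of RNA polymerase I, Cep290 a protein of cilia, Dennd4a a Rab exchange factor and Klk8 a serine protease. Klrb1b, Vwf and Serpinb6c differed by -0.67, -0.60 and -0.59. One further gene called lower, 2410003I16Rik, had no known chromosome.

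Genes called higher outside chromosome 8 were led by Pmaip1, which encodes Noxa, a death-promoting member of the BCL2 family and a target of the tumour suppressor p53. It stood at 8.60 in the clone, 8.64 and 8.70 in lines 1 and 2 and 10.14 in line 3, a difference of 1.49 ± 0.08 (limma adjusted p = 0.0012), or 2.81-fold higher. Btg2, an antiproliferative gene that p53 also activates, stood at 9.22, 9.29 and 9.42 against 10.04, a difference of 0.73 ± 0.10 (limma adjusted p = 0.0412). Its other bright probe set differed by 0.76. Of 26 measured p53 targets these were the 2 called, and line 3 was highest for 18 and lowest for 3, with a median of 0.20 against -0.01 over all genes. Over all genes 0.159% were called higher, and line 3 was highest for 25.7% and lowest for 28.8%. Among the p53 targets not called, Perp differed by 0.45, Mdm2, which encodes the ubiquitin ligase of p53, by 0.43, Phlda3 by 0.38 and Sesn1 by 0.37. Of 15 BCL2 family genes Pmaip1 was the 1 called, and the median of the list was 0.03.

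The other 10 rises outside chromosome 8 took in regulators of signalling and chromatin. Ppp2r5a, a regulatory subunit of protein phosphatase 2A, stood at 10.21, 10.49 and 10.38 against 11.21, a difference of 0.85 (limma adjusted p = 0.0412). Ptp4a3, the phosphatase PRL-3, rose by 0.70 and Rgs20, a regulator of G protein signalling, by 0.71; both lost the call when probe sets were averaged. Tcf15, a basic helix-loop-helix factor found in stem cells poised to leave the naive state, stood at 10.44, 10.28 and 10.31 against 11.01, a difference of 0.67 (limma adjusted p = 0.0431). H2aw, a histone H2A gene, stood at 6.68, 6.79 and 6.74 against 7.49, and lost its call when probe sets were averaged, at 0.39. Ube2t, the ubiquitin-conjugating enzyme of the Fanconi anaemia pathway, rose by 0.56 and likewise lost its call, at 0.35. Commd3 rose by 0.57. Zfp365, a zinc finger gene, stood at 7.33, 7.25 and 7.18 against 8.10. Of 336 measured genes with Zfp symbols 2 were called, both higher: Zfp365 and Zfp1, the latter on chromosome 8.

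Lists of the pluripotent state held no call. Of 19 core pluripotency genes line 3 was highest for 4 and lowest for 11 (25.7% and 28.8% over all genes). The median of the core list was -0.02. Dppa3, also of the germ line list, differed most, by -1.02, followed by Mycn at -0.69, Fbxo15 at -0.44 and Gdf3 at -0.40. The median of 16 naive-state genes was -0.02, with Nr0b1, a nuclear receptor, at -0.55. Among 18 genes of the primed epiblast, the state that follows implantation, the median was -0.11, and members differed both ways: Lef1 by -0.67, Dnmt3b by -0.61, Otx2 by 0.63 and Eomes by 0.56. The 31 genes of fibroblasts and feeders had a median of -0.05 that took either sign over alternative settings, and the part of such cells in the other differences was not tested. In the cell cycle list, 0 of 31 were called, and the median was 0.08. Line 3 was highest for 15 and lowest for 6 of them (25.7% and 28.8% over all genes). Ccnd2 and Ccnd1, D-type cyclins, differed by -0.55 and -0.48. In all, 21 of 37 lists had no called member, and their medians ran from -0.26 to 0.08.

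**Figure D3:**
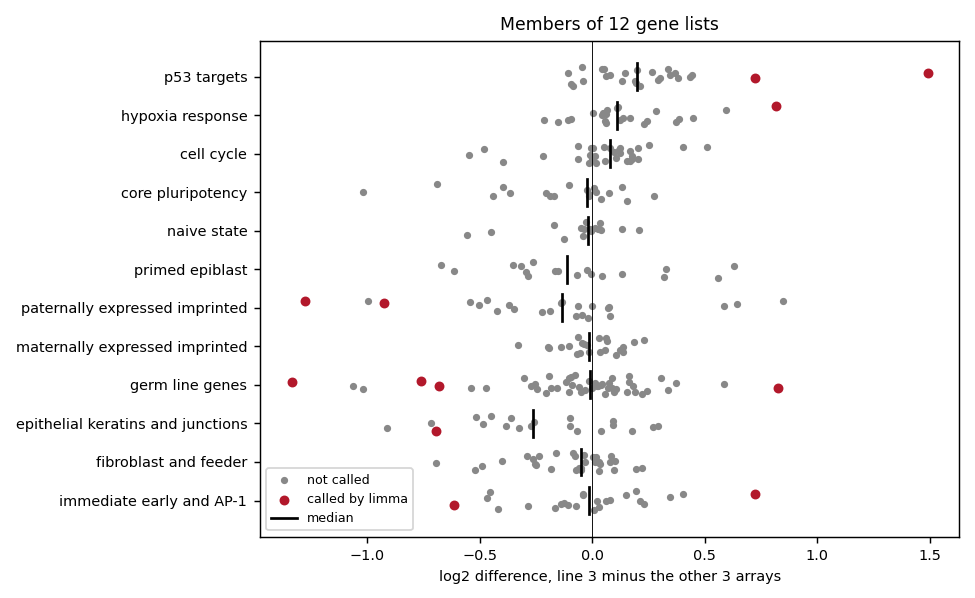
Log2 difference of line 3 from the mean of the other 3 arrays for each measured member of 12 gene lists, 1 point a gene, red where limma called it, with the list median as a black bar. The 26 p53 targets have a median of 0.20 with Pmaip1 and Btg2 at the right, and the 20 epithelial genes have a median of -0.26; most points of every list are grey.

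Called genes were spread over the chromosomes, chromosome 8 apart. Chromosome 1 held 7 falls (0.662% of 1057 genes) and 4 rises (0.378%), and chromosome 7 held 8 falls (0.566% of 1413). Chromosomes 2 and 9 held 6 falls each (0.429% of 1399 and 0.599% of 1002), where falls made up 0.31% of genes outside chromosome 8. Chromosomes 5, 12, 19 and Y held no call, though only 9 genes of Y were measured. On chromosome 8, 17 of 932 genes were higher (1.82%) and 1 was lower (0.107%), and the median difference over its genes was 0.18. The rises there included Ckap2, a microtubule-associated protein of mitosis, at 0.76, Vps36, a subunit of the endosomal sorting complex ESCRT-II, at 0.71, and Csnk2a2, a catalytic subunit of casein kinase 2, at 0.65. Gabarapl2, a membrane protein of autophagosomes, rose by 0.64 and Brd7, a bromodomain subunit of a chromatin remodelling complex, by 0.63. Brd7 lost its call when probe sets were averaged. The single fall was Sall1, a zinc finger gene of stem cells, at 9.08, 9.20 and 9.13 against 8.52. Calls in 3 lists were of chromosome 8 genes alone: Ankrd37 among 24 hypoxia genes, Dnajb1 among 17 heat shock genes and Col4a1 among 23 genes of primitive endoderm and basement membrane. Uncalled members of these lists on other chromosomes included the heat shock gene Hspa1b at 0.61 and the laminin gene Lama1 at -0.81.

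**Figure D4:**
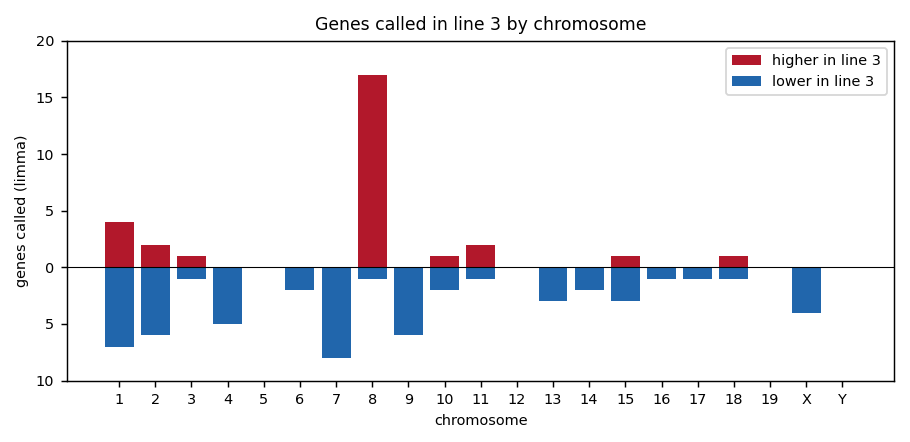
Number of genes called by limma on each chromosome, with genes higher in line 3 as red bars upward and genes lower as blue bars downward from 0. Chromosome 8 has 17 genes higher and 1 lower, chromosome 7 has 8 lower and none higher, and chromosome X has 4 lower. Bars are not scaled to the number of genes measured.

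Some falls were side by side in the genome. Dusp27, Gpa33 and Mael are consecutive measured genes on chromosome 1. Dusp27, which encodes a phosphatase-like protein without catalytic activity, stood at 7.94, 8.0 and 7.76 against 6.86, a difference of -1.04 ± 0.11 (limma adjusted p = 0.0172), and its other bright probe set differed by -2.02. Gpa33 differed by -1.29 ± 0.12 (limma adjusted p = 0.013), and its other bright probe set by -1.14. Mael, a piRNA factor of the germ line, stood at 9.19, 8.74 and 8.94 against 7.89, a difference of -1.06 ± 0.16 that missed the threshold (limma adjusted p = 0.0537). Ildr2, the next gene on the Mael side, differed by -0.02, while Cd247, on the Dusp27 side, was too dim to read. On chromosome 2 the gene model Gm13261, at 6.67, 6.91 and 6.66 against 5.83, lies next to Sfmbt2, and both were called. Gm13261 itself was close to the median of all probe sets or under it on each array. Prkcq, beyond Sfmbt2, differed by -0.01, while Itih5, on the other side, was too dim to read.

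Dusp27 and Gpa33 are transcribed away from each other, with 2323 bases between their starts, and so are Gm13261 and Sfmbt2, with 5328 bases. The 250 bases before the start of each are shown because these neighbours were called together; they come from RefSeq, build GRCm38.p6, are written 5′ to 3′ on the gene's strand, and have each CG dinucleotide in capitals. CG is the letter pair at which mammalian DNA is methylated, and it reads the same on both strands.
Dusp27 (chr1:166127899-166128148, minus strand): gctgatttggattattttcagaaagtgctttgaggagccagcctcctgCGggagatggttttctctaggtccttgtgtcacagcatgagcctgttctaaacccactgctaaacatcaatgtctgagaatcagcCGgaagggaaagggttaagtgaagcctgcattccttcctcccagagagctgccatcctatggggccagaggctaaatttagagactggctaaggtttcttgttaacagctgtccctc
Gpa33 (chr1:166129971-166130220, plus strand): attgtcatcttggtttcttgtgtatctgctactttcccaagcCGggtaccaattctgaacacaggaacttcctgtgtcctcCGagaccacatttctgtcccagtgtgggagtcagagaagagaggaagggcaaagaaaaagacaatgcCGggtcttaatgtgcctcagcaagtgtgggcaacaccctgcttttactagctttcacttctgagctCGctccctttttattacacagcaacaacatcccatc
Gm13261 (chr2:10365124-10365373, minus strand): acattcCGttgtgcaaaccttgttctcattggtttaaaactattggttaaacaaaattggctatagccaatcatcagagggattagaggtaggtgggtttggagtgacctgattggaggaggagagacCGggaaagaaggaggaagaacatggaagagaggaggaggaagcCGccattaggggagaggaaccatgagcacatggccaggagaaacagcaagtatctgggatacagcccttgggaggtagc
Sfmbt2 (chr2:10370201-10370450, plus strand): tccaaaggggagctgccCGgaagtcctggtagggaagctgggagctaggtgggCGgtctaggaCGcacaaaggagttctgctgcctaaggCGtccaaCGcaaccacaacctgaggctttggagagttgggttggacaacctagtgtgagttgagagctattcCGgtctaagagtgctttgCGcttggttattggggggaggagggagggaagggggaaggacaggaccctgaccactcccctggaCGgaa
The Dusp27 window holds 2 CG pairs, and 7.96% of all such windows of measured genes hold fewer. For Gpa33 it holds 4, for Gm13261 3 (13.5% hold fewer) and for Sfmbt2 8 (34.3%), where the median over all windows is 13. All 4 windows thus lie below the median. That of Mael, which lies next to Gpa33 and is not shown, holds 18 (65.8% hold fewer) and lies above it. Of the 53 genes called lower outside chromosome 8, 42 had such a window, and their median was 7. Counts under 13 were thus not particular to these neighbours. Methylation was not measured here, and the counts describe these letters alone.

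On chromosome 7 Ifitm1 lies among relatives that differed less. Ifitm3 stood at 11.88, 12.04 and 11.98 against 11.36, a difference of -0.61 that missed the threshold (limma adjusted p = 0.0541). Ifitm2 and Ifitm6 differed by -0.14 and -0.01. Most bright neighbours of genes called outside chromosome 8 were near 0. Among the measured genes next to a fall outside chromosome 8, 73 were bright, and their median difference was -0.06. Of these 58 lay within 0.2 of 0, and 5 were at or below -0.5: Gpa33, Dusp27, Mael, Sfmbt2 and Ifitm3. The 3 called themselves, Gpa33, Dusp27 and Sfmbt2, are the adjacent falls already described, and 0.462% of all genes were called. How many of all bright genes lay within 0.2 of 0 was not counted. Beside the rises there were 19 bright neighbours, with a median of 0.06 and 13 within 0.2 of 0. Bmi1, next to Commd3, was the 1 among them at or above 0.4.

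**Figure D5:**
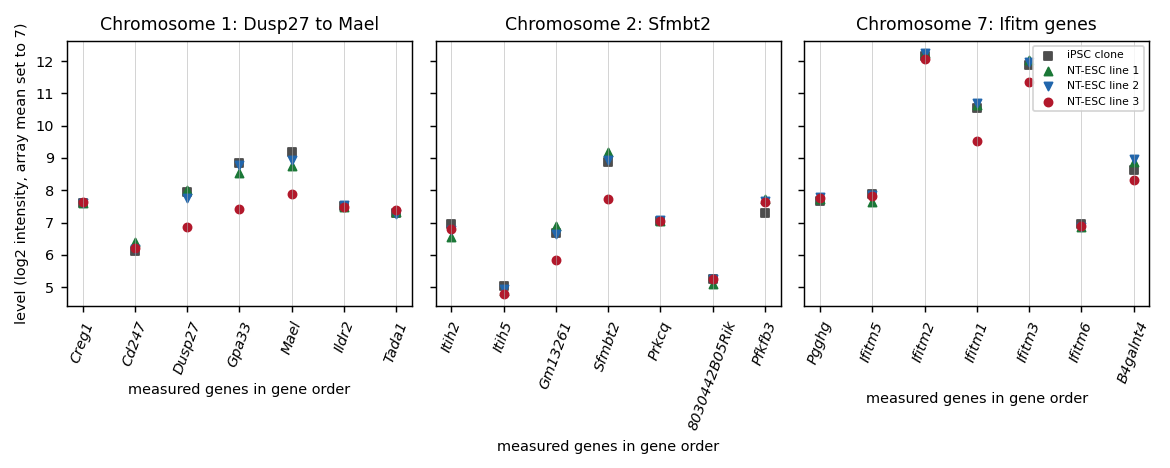
Levels on the 4 arrays, in log2 intensity with the array mean set to 7, of consecutive measured genes around Dusp27, Gpa33 and Mael on chromosome 1, around Sfmbt2 on chromosome 2 and around the Ifitm genes on chromosome 7, in gene order and not to distance. Line 3 (red circles) lies apart from the other arrays at Dusp27, Gpa33 and Mael and at Gm13261 and Sfmbt2, and close to them at Ildr2 and Prkcq; Cd247 and Itih5 are under the median of all probe sets, 6.83.

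Other probe sets of the called genes gave a second reading on the same arrays. Outside chromosome 8, 15 genes called lower had 24 further bright probe sets, and 23 of them were lower in line 3, with a median of -0.75 and a range from -2.02 to 0.07. The 5 further bright probe sets of 5 genes called higher were all higher, with a median of 0.57. These readings share the RNA and the array with the first and do not add a replicate. Klhl13, Gpa33, Dusp27, Peg3 and Btg2 were thus lower or higher by more than 1 probe set each. The bright probe sets of Plekha4 disagreed in sign, and those of Grhl2, Pdzd4, Slc25a12, Jun, Zfp365 and Ube2t, among others, in size. The other bright probe set of Ube2t differed by 0.15, that of Jun by -0.33 and that of Zfp365 by 0.38.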

How the data were processed

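RNA of 4 cell populations was measured on 1 Affymetrix array each, labelled with biotin per the labels' protocols, and how arrays were normalized is not given in the sources used here. Values were deposited by the authors on a log2 scale whose powers of 2 average 1 on each array, the form of a log intensity divided by its mean over the array. Each value was raised to a power of 2 and multiplied by an assumed mean of 7, so that the brightest reading is 14.2. A mean of 6 makes differences 14.3% smaller, and 7.86, with the brightest at 16, makes them 12.3% greater; limma's p-values do not change.

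Of 45101 probe sets, 64 were controls, and the platform annotation gave 1 gene for 34945, several for 932 and none for 9160. Symbols, chromosomes and gene order came from RefSeq GRCm38.p6, which 34741 probe sets matched. Each of 18193 genes took its probe set of highest mean. Files give no detection calls. Between arrays Pearson's r over genes, which are not replicates, was 0.9951 to 0.9979; their number limits the precision.

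Line 3 was tested against the other 3 arrays with R 4.3.3 and limma 3.58.1 (lmFit, then eBayes; 2 residual and 5.05 prior degrees of freedom) with Benjamini-Hochberg adjusted p under 0.05. The fit was also tested on simulated data. Named were called genes outside chromosome 8, up to 6 of chromosome 8, genes 2-fold from each array, and of each list the called members and up to 4 others by size. The members and lists were chosen with earlier results of these data known, so lists were described by counts and medians without a test. Alternatives changed the assumed mean, the scaling, the probe set rule, the filter on dim genes, the eBayes options and the arrays left in.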

Additional observations from a re-analysis of the deposited data

How the results depend on the processing

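No call outside chromosome 8 changed direction under any alternative run, but most of these runs could not reverse a sign. Line 3 lay outside the span of the other arrays in each called gene. Only averaging probe sets or rescaling between arrays could have reversed the direction. The total of 84 calls became 15 with the deposited values as given, 127 with quantile normalization, 168 when probe sets of a gene were averaged and 153 with the eBayes trend. The count of 65 outside chromosome 8 became 15 with deposited values (Accsl, Apoa2, Cd68, Dpys, Gm364, Klhl13, Lncenc1, Lrrc2, Morc1, Pdzd4, Plekha4, Pmaip1, Rab3gap2, Rragd and Septin1) and 106 with averaged probe sets. The cause was not tested. Deposited values give no 2-fold count. Quantile normalization and the trend kept all 65, and averaging kept 56; besides Grhl2, Plekha4, Ptp4a3, Rgs20 and Ttn, Dennd4a, H2aw, Klrb1b and Ube2t lost the call. With averaging 53% of calls were higher, against 34.5%. A mean of 6 left 14 genes 2-fold apart, since every difference shrinks with it. Without the iPSC clone, line 1 or line 2 in turn both counts of calls ranged from 0 to 0 in limma, with smallest adjusted p-values of 0.347 to 0.392 and 1 residual degree of freedom. Rhox5 was called in 4 alternatives, with adjusted p-values of 0.0353 to 0.0457. Medians of 20 of the 37 lists, germ line, Polycomb and feeder lists among them, took either sign over the alternatives other than deposited values. No paired analysis was possible because each population had 1 array and the labels name 1 iPSC clone as the parent of all NT-ESC lines. With 1 array of line 3, a line difference and an array difference cannot be told apart.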

Other observations

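Probe sets without a single gene name were outside the comparison of genes. When limma was fitted to all 45037 probe sets other than controls, 47 were called, and 3 of these were among the 10092 without a single gene, all lower in line 3. The one that differed most stood at 8.55 in the iPSC clone, 8.81 and 8.78 in lines 1 and 2 and 7.01 in line 3, a difference of -1.70 (limma with Benjamini-Hochberg adjustment, adjusted p = 0.00858). The next stood at 7.78, 7.69 and 7.71 against 6.5, a difference of -1.23 with the same adjusted p.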
